A study of Rattus norvegicus with 12 samples.

Results

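The changes of kidney gene expression in 2 rat models of renal fibrosis were set against each other gene by gene. The adenine model came from 3 weeks of gavage with adenine at a daily 220 mg/kg, against a control group given saline, and the UUO model from a left ureter ligated 2 weeks earlier (unilateral ureteral obstruction), against sham surgery. All rats were male Sprague-Dawley rats of wild-type genotype, 8 weeks old at purchase, and each group had 3 rats, taken from groups that held more. The samples are labelled kidney, and the sources used here do not say which kidney of the UUO rats was sequenced. Adenine and saline, ligation and sham, and the time of sampling differ between the models, so drug, surgery and time cannot be told apart in what follows. Genes entered the comparison if their symbol was listed once in each FPKM table and reached an FPKM (fragments scaled to transcript length and library size) of 0.5 or more in 3 or more of the 6 columns of each table. These were 13486 genes of the 27723 symbols in either table and of the 19066 listed once in both. No measured change was used to choose them, but 509 genes passed through the adenine group alone and 472 through the UUO group alone, and such genes had to be higher there.

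Adenine is oxidised to dihydroxyadenine, which crystallises in the tubules and draws macrophages around the crystals. Obstruction of the ureter stretches the tubules by back pressure, injures the epithelium and expands the interstitium without a crystal. Both models lose tubular transport genes and gain immune cells and matrix, which is the common picture of fibrosis. Kidney markers were present in all groups, with Umod between 61.3 and 2489.9 FPKM, and the liver genes Alb and F9 did not exceed 1.49 and 0.0145 FPKM. In bulk tissue, fewer cells of a type and less RNA per cell cannot be told apart. The files hold no read counts, so the depth behind a value is unknown. FPKM summed to between 564972 and 630244 in the control and sham rats and between 468389 and 539011 in the adenine and UUO rats. Control 2 stood apart in the distal transporter Slc12a3, at 12.9 FPKM against 197 and 164 in the other control rats. Adenine 2 had Slc12a3 at 88.9 against 11.5 and 14.8 in the other adenine rats. Counts and calls that change without these rats are given both ways, the joint omission of both having been chosen after seeing the data.

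Changes are log2 fold changes on log2(FPKM + 0.1), each within its own table, with standard errors after ±. The tables were normalized separately, so levels of different tables are set side by side only as a description, and the tests compare changes. A DEG (differentially expressed gene) had a limma adjusted p under 0.05 and a log2 fold change of at least 2 in size. Of the compared genes, 10.1% were upregulated DEGs and 4.61% downregulated DEGs in adenine rats, and 12.4% and 4.1% in UUO rats. The genes called in both models in the same direction made up 73.0% of the adenine DEGs and 65.2% of the UUO DEGs, which is 7.6% of all genes for upregulation and 3.14% for downregulation. Their median log2 fold change was 3.02 in adenine and 3.00 in UUO rats for the upregulated and -3.38 and -3.24 for the downregulated genes. These genes were chosen for passing the same limit in both models, so the nearness of the medians is partly built in.

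A gene was said to differ between the models when the difference of its log2 fold changes (adenine minus UUO) was at least 2 in size with an adjusted p under 0.05. Higher changes in adenine were called for 144 genes (1.07%) and higher changes in UUO for 245 (1.82%). Genes whose mean log2 level differed by 2 or more between control and sham rats, which is 4-fold, were set apart. Of the 389 differing genes, 344 were not set apart, 131 of them with the higher change in adenine and 213 in UUO. In 223 of the 344 both models moved the same way and differed in size, and in 121 the signs differed. The median log2 difference over all genes was -0.28, since the median change was 0.30 in adenine and 0.60 in UUO rats. That median depended on the scaling. With median-of-ratios scaling it was 0.02, and the calls turned from 144 higher in adenine and 245 higher in UUO to 196 and 143. With quantile normalization they were 216 and 150, so which model held more of the higher changes depended on the scaling. Median-of-ratios scaling kept all 144 genes called higher in adenine and 143 of the 245 called higher in UUO.

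**Figure D1:**
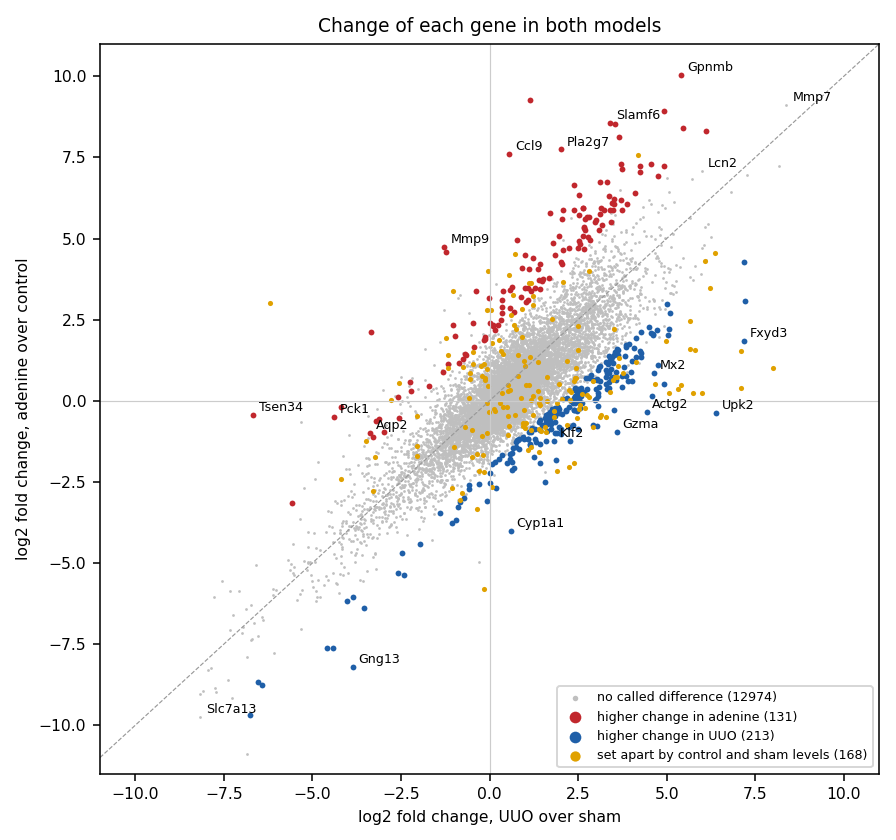
Log2 fold change of each of the 13486 genes in UUO over sham (horizontal) and adenine over control (vertical), one point per gene. Most genes lie along the dashed line of equal change. Red and blue points are the 131 and 213 genes called different, and yellow points the 168 genes set apart by their starting levels.

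Most genes that were a DEG in only 1 model moved the same way in the other. Of 1244 such genes not set apart, 1195 (96.1%) had the same sign in both models. The same-sign share over all compared genes is not given here, so the 96.1% has no background beside it. The difference itself passed the test in 63 of the 508 that were DEGs in adenine rats only, and in 119 of the 736 that were DEGs in UUO rats only. Of the 1443 shared DEGs not set apart, 84 differed in size by the same test. For 288 of them, 228 upregulated and 60 downregulated, the 95% interval of the difference lay within -1 to 1, so that the changes were alike to within 2-fold. The interval typically reached 0.57 to either side over all genes, which limits how often likeness could be shown.

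The gene group with the highest change in adenine over that in UUO was that of lipid-laden phagocytes, macrophages that take up lipid and debris and digest them in lysosomes. Of its 20 measured genes, 16 were upregulated in adenine and 10 in UUO rats. By the test 11 had a higher change in adenine, and all 20 had the larger log2 change there. Among all genes 10.1% and 12.4% were upregulated, 1.07% were called higher in adenine and 32.5% had the larger log2 change there. The median log2 fold change was 3.81 in adenine and 2.24 in UUO rats, beside 0.30 and 0.60 over all genes, and the count of 11 stayed between 9 and 11 in all alternatives. Gpnmb, a transmembrane glycoprotein of lysosome-rich macrophages, was at 1.1, 1.73 and 1.05 FPKM in control, 1591, 1234 and 1511 in adenine, 2.25, 3.53 and 1.89 in sham and 148, 108 and 81.8 in UUO rats. Every adenine rat lay above every UUO rat, though Gpnmb was named among genes whose changes did not overlap between the models. The log2 fold change was 10.04 ± 0.20 in adenine and 5.41 ± 0.29 in UUO rats, a difference of 4.63 (95% interval 3.87 to 5.39, adjusted p = 7.94e-06). Pla2g7, which hydrolyses platelet-activating factor and oxidised phospholipids, rose from 2.2, 2.76 and 1.11 to 601, 257 and 506 in the adenine table and from 1.62, 3.65 and 6.7 to 16.2, 16.6 and 10.3 in the UUO table. Its log2 difference between the models was 5.74 (4.36 to 7.12, adjusted p = 0.000105). Mmp12, the macrophage elastase, stood at 229, 164 and 241 FPKM in adenine rats against at most 0.496 in control, and at 28.5, 25.4 and 12.2 in UUO rats against at most 0.833 in sham. It rose in both models and by 4.02 more on the log2 scale in adenine rats (adjusted p = 0.000282). Ctsk, a lysosomal collagenase, followed with 1101, 512 and 693 FPKM in adenine and 72.3, 52.1 and 47.1 in UUO rats, from starting levels between 4.39 and 8.51, a log2 difference of 3.63 (adjusted p = 9.58e-05).

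The wider macrophage list moved in both models. Of 17 genes, 16 were upregulated in adenine and 15 in UUO rats, and 3 differed, all higher in adenine. The shares over all genes were 10.1% and 12.4% upregulated and 1.07% higher in adenine. Itgam, the integrin chain CD11b, was at 59.1, 31.5 and 48.9 FPKM in adenine and 5.29, 3.56 and 4.48 in UUO rats from levels under 0.3 in both control groups. Its change was 3.58 higher in adenine (adjusted p = 0.000119). Lyz2, macrophage lysozyme, reached 12329, 5964 and 9046 FPKM in adenine rats and 1868, 1772 and 1216 in UUO rats, from 210.4, 171 and 145 in control and 262, 291 and 171 in sham, and differed by 2.90 (adjusted p = 0.000381). Cd68, a lysosomal membrane protein, differed by 2.49 (adjusted p = 0.000453). The share of the summed FPKM held by the macrophage list was 1.56% to 2.85% in adenine and 0.386% to 0.563% in UUO rats, against at most 0.0604% in the control and sham rats. For the phagocyte list it was 1.79% to 2.74% in adenine and 0.511% to 0.759% in UUO rats, and the groups did not overlap. Lyz2 is the main part of the first of these shares. MHC class II genes, which present antigen, were upregulated in 11 of 15 in each model and none differed, at median log2 fold changes of 2.72 and 2.43.

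**Figure D2:**
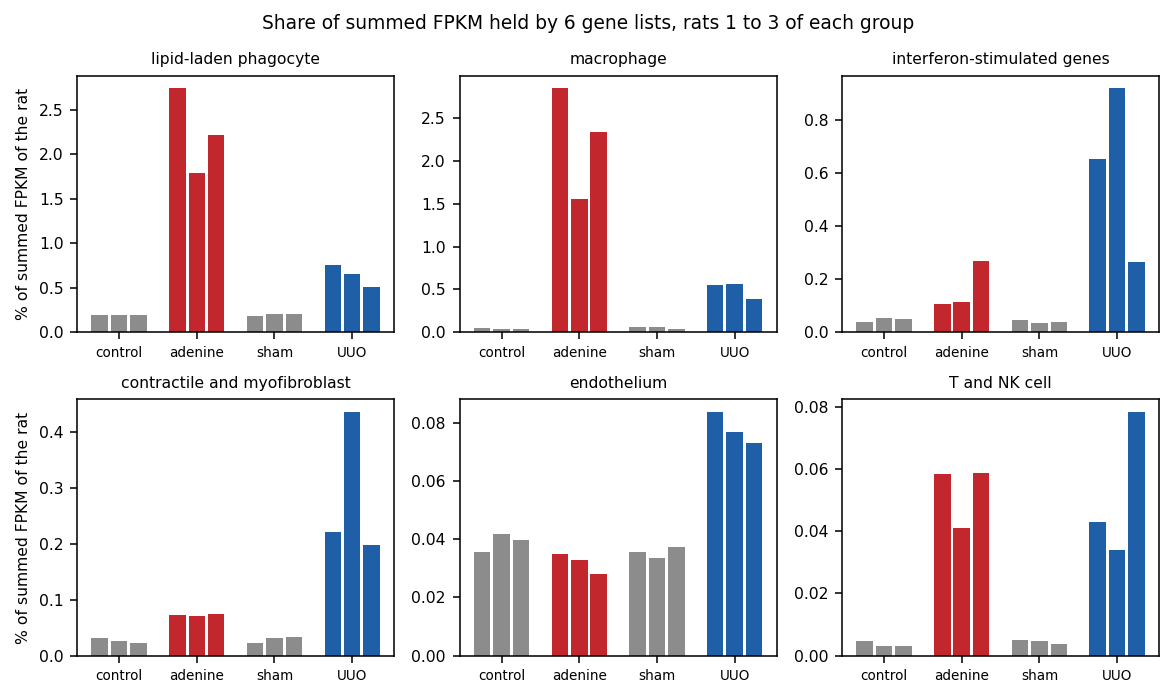
Share of the summed FPKM of each rat (vertical, percent) held by 6 gene lists, with 1 bar for each rat in the order 1 to 3 within a group. The phagocyte and macrophage shares are highest in the adenine rats, and the interferon, contractile and endothelial shares in UUO rats, where UUO 3 had 0.263% for interferon-stimulated genes against 0.654% and 0.921% in UUO 1 and UUO 2 and 0.269% in adenine 3.

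Several motifs were searched in promoters, and the AP-1 site TGACTCA, which binds Fos and Jun proteins, was more frequent in the phagocyte list. Windows held 300 bases around the gene start (250 before and 50 after, RefSeq, GRCr8). A match on either strand was found in 3.43% of the 9849 compared genes with a window and in 40.0% (6 of 15) of the phagocyte list. The share was 12.6% (11 of 87) of the genes higher in adenine and 7.63% (10 of 131) of those higher in UUO. It was also 6.3% of shared upregulated genes, 14.3% (4 of 28) of interferon-stimulated genes and 25.0% (2 of 8) of contractile genes. The stretches below are on the strand of the gene with the site in capitals, read there as TGAGTCA. All 4 lie 71 to 87 bases before the start. They are at chr4:79341029-79341059 for Gpnmb, chr8:12866553-12866583 for Mmp12, chr8:13132951-13132981 for Mmp7 and chr8:12925198-12925228 for Mmp3, on the plus strand.
Gpnmb: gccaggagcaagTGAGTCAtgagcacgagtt
Mmp12: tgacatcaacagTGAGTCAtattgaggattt
Mmp7: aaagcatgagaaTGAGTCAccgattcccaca
Mmp3: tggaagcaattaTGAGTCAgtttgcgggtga
The same 7 letters stood before genes with unlike patterns. Mmp12 had the higher change in adenine, Mmp3 in UUO, and Mmp7 rose in both. The windows of Il1rn, Lcn2 and Havcr1 held no match. A match is a string of letters and not a measured site.

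Other genes rose far more in adenine rats or in them alone. Ccl9, a chemokine of the CC family, rose from 0.753, 1.28 and 1.31 to 347, 119.9 and 290.4 FPKM in the adenine table, while sham rats had 2.04, 1.84 and 0.705 and UUO rats 3.3, 1.97 and 1.39. Its UUO change of 0.55 ± 0.47 did not pass the test and turned sign in 2 alternatives, and the difference was 7.05 (adjusted p = 3.2e-05). Il1rn, the antagonist of the interleukin-1 receptor, rose in both models, to 467, 233 and 373 FPKM in adenine and 12.3, 17.1 and 8.5 in UUO rats, from about 1 in both control groups. The difference was 4.99 (4.17 to 5.80, adjusted p = 7.94e-06). Mmp9, gelatinase B, went opposite ways. It was at 8.17, 1.04 and 6.76 in control, 192, 45.7 and 140.4 in adenine, 2.73, 5.15 and 9.29 in sham and 1.95, 2.48 and 1.77 in UUO rats. It rose by 4.74 ± 0.86 in adenine rats (adjusted p = 0.00335) and fell by 1.27 in UUO rats (SE 0.42, adjusted p = 0.0306), a difference of 6.01 (adjusted p = 0.00106). Mt3, a metallothionein that binds zinc and copper, was at 21.6, 31.3 and 29 FPKM in adenine and 0.342, 1.04 and 0.117 in UUO rats, from 1.6, 0.687 and 0.99 in control and 0.958, 1.14 and 0.96 in sham. It rose in adenine rats, its UUO change of -1.22 ± 0.59 did not pass the test, and the models differed by 5.80 (adjusted p = 0.000119).

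Slamf6, a receptor known from T and NK cells, was at 138, 41.9 and 122 FPKM in adenine and 1.77, 1.24 and 3.22 in UUO rats, from at most 0.248 in both control groups, and differed by 5.16 (adjusted p = 0.000352). Hvcn1, a voltage-gated proton channel of phagocytes, was at 128, 63.6 and 88.9 and 11.2, 6.18 and 7.78, and Rassf4, a Ras-association protein, at 187, 101.1 and 154 and 12.2, 8 and 7.81 in the adenine and UUO rats. Both rose in both models and by 4.47 and 4.29 more in adenine. Sctr, the secretin receptor, was at 155, 66 and 133 in adenine and 6.64, 16 and 8.1 in UUO rats and differed by 4.08 (adjusted p = 0.000965). Trpv2, a calcium-permeable channel found in macrophages, differed by 2.93 (adjusted p = 0.00013), with 59.9, 33.5 and 55.1 FPKM in adenine and 8.03, 6.75 and 5.99 in UUO rats. Slc7a11, the cystine importer, had 12.4, 5.35 and 11.4 in adenine and 0.608, 0.511 and 0.544 in UUO rats and differed by 3.84 (adjusted p = 0.000381). Of the neutrophil chemokines, Cxcl2 was at 8.45, 4.35 and 4.69 and 0.578, 0.741 and 0.811, and of the monocyte chemokines Ccl3 was at 71.5, 29.4 and 63.7 and 3.78, 3.64 and 4.97, with differences of 2.86 and 3.52. Cxcl2 was called in 20 of the 22 alternatives that kept it, with differences from 1.96 and adjusted p up to 0.0806, and Ccl3 in all 23. Over the 29 chemokine ligands measured, 3 were higher in adenine and 5 in UUO, beside 1.07% and 1.82% of all genes. Of 19 glycolysis genes, Hk3, a hexokinase of myeloid cells, and Slc16a3, a lactate exporter, had the higher change in adenine, by 2.45 and 2.21. Slc16a3 was not called without control 2, control 3, adenine 1, adenine 3, sham 2, sham 3 or UUO 3, with differences of 1.74 to 2.20. The median change of that list was 1.17 in adenine and 0.35 in UUO rats, the latter -0.25 with median-of-ratios scaling.

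Of the gene lists, the one with the most members called higher in UUO was that of interferon-stimulated genes, which are switched on by interferon through STAT and IRF factors and act against viruses. Of 38 measured, 36 were upregulated in UUO and 13 in adenine rats, and 15 differed, all higher in UUO. The shares over all genes were 12.4% and 10.1% upregulated and 1.82% higher in UUO. The median log2 fold change was 3.54 in UUO and 1.44 in adenine rats. The rats of a group were far apart. The list held 0.654%, 0.921% and 0.263% of the summed FPKM in UUO 1, UUO 2 and UUO 3, and 0.106%, 0.114% and 0.269% in adenine 1, adenine 2 and adenine 3, so adenine 3 lay slightly above UUO 3. Mx2, a dynamin-like antiviral GTPase, was at 4.79, 6.06 and 6.82 FPKM in control, 4.76, 5.57 and 44.7 in adenine, 7.73, 4.45 and 6.91 in sham and 276, 458 and 31.1 in UUO rats. The high adenine rat was again adenine 3 and the low UUO rat UUO 3. Mx2 rose by 4.65 ± 0.94 in UUO rats (adjusted p = 0.00392) and its adenine change was 0.85 ± 0.81 (adjusted p = 0.394). The difference of -3.80 (adjusted p = 0.0375) was called in 9 of 23 alternatives. It was lost without any 1 of the 9 rats other than control 1, adenine 3 and UUO 3, and without control 2 and adenine 2 together, with differences of -3.95 to -3.03. Isg15, a ubiquitin-like protein, was at 7.05, 6.86 and 24.6 in adenine and 168, 307 and 18.8 in UUO rats, and its difference of -3.10 was called in 7 of 23, and was lost by the same omissions, at -3.16 to -2.28. Rsad2, known as viperin, and Cxcl9, a chemokine for T cells, were called in all 23. Rsad2 stood at 2.49, 3.97 and 7.08 in adenine and 58.3, 97.6 and 15.3 in UUO rats and differed by -3.30 (adjusted p = 0.00705). Cxcl9 stood at 2.19, 1.77 and 1.59 and 14.4, 8.24 and 30.2, from at most 2.32 in both control groups, and differed by -3.23 (adjusted p = 0.000874). Herc6, an E3 ligase for ISG15, differed by -3.79 (adjusted p = 0.00422), with 2.08, 2.45 and 9.75 in adenine and 28.2, 40.2 and 9.94 in UUO rats. The adenine changes of Rsad2, Cxcl9 and Herc6 did not pass the test and turned sign in 1 or 2 alternatives. The count of 15 fell to 7 without UUO 1, without UUO 2 or without control 2 and adenine 2 together, was 8 with median-of-ratios scaling or quantile normalization, and rose to 18 without adenine 3 and 22 without UUO 3. In every alternative all called members were higher in UUO.

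The core of the interferon-stimulated response element, GAAANNGAA, was found on either strand in 7.24% of all promoter windows, in 64.3% (18 of 28) of the interferon-stimulated genes, in 19.8% (26 of 131) of the genes higher in UUO and in 11.5% (10 of 87) of those higher in adenine. The list was built from genes known to respond to interferon, many of them through this element. These shares are counts with no test. The genes below show the element (capitals, strand of the gene) in members of the list. Irf7, Ifit3, Oas1a and Cxcl10 were chosen for this after their values were seen. The stretches are at chr6:48788246-48788278 (minus strand) for Rsad2, chr1:205800071-205800103 (minus) for Irf7, chr1:241527271-241527303 (plus) for Ifit3, chr12:41330413-41330445 (plus) for Oas1a and chr14:15988816-15988843 (plus) for Cxcl10, all on GRCr8.
Rsad2: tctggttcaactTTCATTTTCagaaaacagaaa
Irf7: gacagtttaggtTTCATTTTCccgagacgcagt
Ifit3: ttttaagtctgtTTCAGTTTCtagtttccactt
Oas1a: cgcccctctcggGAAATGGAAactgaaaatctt
Cxcl10: cgctttgGAAAGTGAAacttaactcact
In Rsad2, Irf7 and Ifit3 the element is on the opposite strand. Ifit3 and Oas1a each have another match that overlaps the printed stretch. Irf7, the factor that amplifies the response, was at 14.7, 14 and 129.7 FPKM in adenine and 332, 566 and 84.5 in UUO rats, from 9.8, 18.6 and 15.1 in control and 22.2, 12.1 and 16.8 in sham. Its difference of -2.83 missed the threshold (adjusted p = 0.0658), as did those of Ifit3 (adjusted p = 0.054) and Oas1a (adjusted p = 0.137), while that of Cxcl10 was called at -2.73 (adjusted p = 0.0137). The windows of Cxcl9 and Herc6, called in all alternatives, held no match.

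Genes of cytotoxic lymphocytes were higher in UUO as well. Of 21 T and NK cell genes, 19 were upregulated in UUO and 10 in adenine rats, and 5 had the higher change in UUO, with Slamf6 alone higher in adenine. Among all genes 12.4% and 10.1% were upregulated, and 1.82% had the higher change in UUO. The 5 became 2 of 17 at a minimum of 1 FPKM and 3 of 21 with a pseudocount of 1, and stayed between 4 and 6 when 1 rat was left out. The 10 upregulated in adenine rats became 2 with a pseudocount of 1 and 6 without adenine 2. Gzma, the granule protease granzyme A, was at 0.852, 0.79 and 0.346 FPKM in control, 0.0912, 0.525 and 0.327 in adenine, 0.333, 0.329 and 0.378 in sham and 7.13, 3.98 and 5.17 in UUO rats. All UUO rats lay above the 9 others, though Gzma was named among genes whose changes did not overlap between the models. Gzma rose by 3.59 ± 0.26 in UUO rats, its adenine change of -0.96 ± 0.54 did not pass the test, and the difference was -4.55 (-5.84 to -3.27, adjusted p = 0.000344). Prf1, the pore-forming perforin, was at 0.473, 0.691 and 0.712 in adenine and 5.67, 3.53 and 7.41 in UUO rats, and Nkg7, a granule membrane protein, at 0.789, 2.4 and 1.44 and 8.58, 4.66 and 17.5. They differed by -2.96 (adjusted p = 0.00299) and -2.94 (adjusted p = 0.0165), and their adenine changes of 0.36 ± 0.44 and 0.63 ± 0.56 did not pass the test and turned sign in 2 and 1 alternatives. The list as a whole held 0.0411% to 0.0588% of summed FPKM in adenine and 0.034% to 0.0785% in UUO rats, ranges that overlap.

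**Figure D3:**
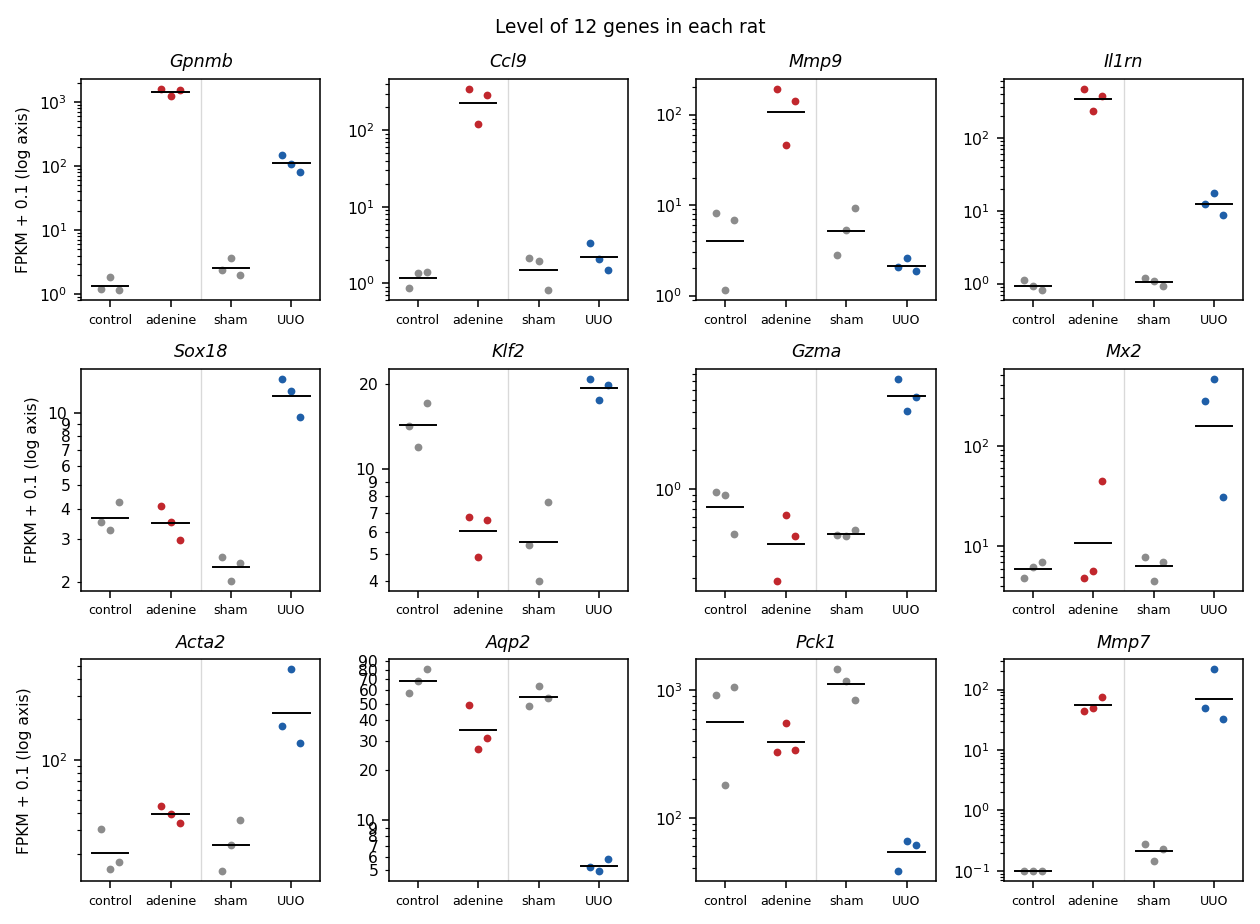
FPKM + 0.1 on a log axis (vertical) of 12 genes in each of the 3 rats of the 4 groups, with a bar at the mean of the logs. Gpnmb, Ccl9, Mmp9 and Il1rn are highest in the adenine rats. Sox18, Klf2, Gzma and Acta2 are highest in UUO rats, Mx2 has its highest mean there but overlaps with the adenine rats, Aqp2 and Pck1 are lowest there, and Mmp7 rises in both models.

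Endothelial genes changed differently in the models, though few were DEGs in either. Of 15 measured, 1 was downregulated and none upregulated in adenine rats, and 2 were upregulated in UUO rats. Over all genes 4.61% were downregulated in adenine and 12.4% upregulated in UUO rats. The higher change was in UUO for 6, beside 1.82% of all genes. The median change was -0.57 in adenine and 0.85 in UUO rats, beside 0.30 and 0.60 over all genes. The median difference was -1.48, beside -0.28 over all genes. Sox18, a transcription factor of vessels and lymphatics, was at 3.43, 3.17 and 4.19 FPKM in control, 4.02, 3.42 and 2.87 in adenine, 2.43, 1.92 and 2.29 in sham and 13.7, 12.2 and 9.53 in UUO rats. It rose by 2.35 ± 0.18 in UUO rats, its adenine change was -0.07 ± 0.19, and the difference was -2.42 (-2.99 to -1.85, adjusted p = 9.58e-05), called in all 23 alternatives. Plvap, which forms the diaphragms of fenestrated endothelium, fell from 33, 61.3 and 32.9 to 14.1, 19.7 and 12.3 in the adenine table and rose from 48.1, 40.6 and 31.3 to 74.9, 56.7 and 68.4 in the UUO table, a difference of -2.17 (adjusted p = 0.000965). Sox17 and Egfl7, an arterial factor and a secreted vessel protein, differed by -2.28 and -2.13. The calls fell just under the threshold for Plvap without control 2 (-1.87), for Egfl7 without control 3 or UUO 1 (-1.96 each) and for Sox17 without control 2 and adenine 2 together (-1.9). The sialomucin Emcn, named after its values were seen, fell from 44.3, 55.4 and 53.5 to 14.4, 18.3 and 11.8 in the adenine table and had 47.4, 46.9 and 55.5 in sham and 61.8, 54.5 and 63.8 in UUO rats, a difference of -2.06 (adjusted p = 6.53e-05). Klf2, a factor induced by flow in endothelium, was at 14.1, 11.9 and 17 in control, 6.68, 4.76 and 6.52 in adenine, 5.28, 3.92 and 7.55 in sham and 20.7, 17.5 and 19.8 in UUO rats. Neither pair of groups overlapped, which also held for 69.1% of all genes in the control and adenine table and 76.9% in the other. Klf2 fell by 1.25 in adenine rats (SE 0.19, adjusted p = 0.00171) and rose by 1.82 ± 0.23 in UUO rats (adjusted p = 0.000496). The difference was -3.07 (-3.72 to -2.41, adjusted p = 6.16e-05), called in all 23 alternatives. The count of 6 endothelial genes was 1 with median-of-ratios scaling and 2 with quantile normalization, since most differences lay close to the threshold of 2, while the signs of both medians stayed the same. The list's share of summed FPKM was 0.0282% to 0.0349% in adenine and 0.0731% to 0.0838% in UUO rats, against 0.0337% to 0.0419% in the control and sham rats.

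Smooth muscle and myofibroblast genes were upregulated in 8 of 12 in UUO rats and in 1 of 12 in adenine rats, and 4 differed, all higher in UUO. Among all genes 12.4% were upregulated in UUO and 10.1% in adenine rats, and 1.82% had the higher change in UUO. The adenine count is thus near the share over all genes. The medians were 2.80 in UUO and 0.92 in adenine rats, beside 0.60 and 0.30 over all genes. Acta2, smooth muscle actin, was at 30.6, 15.4 and 17.1 FPKM in control, 45.2, 39.2 and 33.6 in adenine, 14.7, 22.9 and 35.4 in sham and 179, 472 and 133 in UUO rats. It rose in both models, by 0.96 ± 0.27 (adjusted p = 0.0198) and 3.29 ± 0.51 (adjusted p = 0.00124), and differed by -2.33 (adjusted p = 0.011). Tagln, an actin-binding protein of smooth muscle, was at 114, 109 and 107 in adenine and 462, 1019 and 493 in UUO rats and differed by -2.20 (adjusted p = 0.00216). Actg2, the enteric and urinary tract actin, was at 25.2, 56 and 2.67 in UUO rats and at no more than 2.04 in any other rat. UUO 3 was close to the highest sham rat. The difference of -4.78 had a wide interval of -7.52 to -2.04 (adjusted p = 0.0152). Cnn1, calponin, differed by -2.69 and was called in 9 of 23 alternatives, being lost without any 1 of 7 of the 12 rats, or control 2 and adenine 2 together, at -2.75 to -2.08. Without UUO 2 the difference was -1.79 for Acta2 and -1.84 for Tagln, and without sham 1 that of Tagln was -1.92, none of them called. UUO 2 was the highest rat in these genes, and the count of 4 was 1 without it, 2 without sham 1 and 2 with median-of-ratios scaling.

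Fibrillar matrix genes rose in both models, while other matrix genes were mixed. Upregulated DEGs made up 10.1% of all genes in adenine and 12.4% in UUO rats. Of 23 fibrillar matrix genes, 20 were upregulated in adenine and 22 in UUO rats, with medians of 3.09 and 4.15, and 1 differed. That was Eln, the elastic fibre protein elastin, at 7.09, 3.57 and 3.57 in control, 16.7, 5.22 and 11 in adenine, 0.718, 1.76 and 6.3 in sham and 107, 60.6 and 29.3 in UUO rats, with a difference of -3.64 (adjusted p = 0.0115). Without UUO 3 the count was 5. Col1a1, a chain of type I collagen, was at 117, 127 and 112 FPKM in adenine and 517, 262 and 122 in UUO rats. It rose by 3.70 ± 0.20 and 5.27 ± 0.62, and the difference of -1.57 (-2.97 to -0.17) was not called (adjusted p = 0.0871), but was without sham 3 (-2.02) or UUO 3 (-2.10). Of 20 basement membrane genes, 6 were upregulated in adenine and 9 in UUO rats and 1 was downregulated in each, with medians of 0.69 and 1.85. The 1 that differed was Lamc3, a laminin chain. It fell by 1.01 in adenine rats (SE 0.24) and rose by 2.01 ± 0.25 in UUO rats, a difference of -3.02 (adjusted p = 0.000124). Fbln2, fibulin 2, was at 0.866, 0.944 and 0.828 in adenine and 17.3, 4.57 and 1.18 in UUO rats, and its difference of -3.79 had an interval of -6.10 to -1.47 and was not called without sham 1 (-3.22). Wfdc1, a secreted whey acidic protein, fell by 2.49 in adenine rats (SE 0.43) and was at 16, 19.8 and 2.76 in UUO rats against 1.86, 4.87 and 3.61 in sham, a difference of -4.04 (adjusted p = 0.00518). Tgfb1, the main profibrotic cytokine, was at 121, 90.1 and 102 in adenine and 83.8, 78 and 65.7 in UUO rats and rose by 3.63 ± 0.13 and 2.84 ± 0.14. The difference of 0.79 (0.37 to 1.21, adjusted p = 0.0101) passed on p but was under 2 and was not called. Tgfb3, a relative with effects on mesenchyme, was higher in UUO by a difference of -2.18 (adjusted p = 0.0127), which fell to -1.84 without control 1, -1.79 without sham 1 and -1.88 without UUO 2. Among metalloproteinases, Mmp3, stromelysin 1, was at 3.61, 7.7 and 3.94 in UUO and 1.17, 0.187 and 0.659 in adenine rats, a difference of -4.40 (adjusted p = 0.00281).

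Uroplakin genes of the urothelium, the lining of the renal pelvis and ureter, were high in the UUO samples, while the urothelium list as a whole was mixed. Only 4 of 17 on the list were compared. Of these, 3 were upregulated in UUO rats and 1 in adenine rats, and 2 differed, both with the higher change in UUO. The shares over all genes were 12.4% and 10.1% upregulated and 1.82% higher in UUO. The 17 genes together held 0.0181% to 0.0602% of summed FPKM in adenine and 0.0506% to 0.0548% in UUO rats, ranges that overlap, against at most 0.00377% in control and sham rats. Psca, prostate stem cell antigen, made up most of the adenine share, at 287, 83 and 198 FPKM in adenine and 37.9, 34.2 and 36.8 in UUO rats, from 0.91, 5.47 and 1.01 in control and 9.12, 2.43 and 0.862 in sham. It rose by 6.51 ± 0.75 in adenine and 3.69 ± 0.73 in UUO rats, and the difference of 2.82 (0.56 to 5.07) was not called (adjusted p = 0.0612). A call toward adenine was made with a pseudocount of 1, with quantile normalization, and without control 2, adenine 2, sham 3 or control 2 and adenine 2 together. The fourth, Ovol1, a transcription factor of epithelia, was no DEG in either model. Psca and Ovol1 were named after their values were seen, to complete the list. Upk2, a uroplakin that forms the urothelial plaque, was at 0.279, 1.58 and 0.303 FPKM in control, 0.642, 0.157 and 0.524 in adenine, 0.492, 0.179 and 0.0001 in sham and 29.4, 10.7 and 30.1 in UUO rats. All UUO rats lay above all others, though Upk2 was named among genes whose changes did not overlap between the models. The difference was -6.75 (-8.89 to -4.62, adjusted p = 0.000683), and the sign of the adenine change turned in 3 alternatives. Upk1a, another uroplakin, was at 27.6, 9.84 and 32.1 in UUO rats and at most 3.45 elsewhere, the highest value outside UUO being that of control 2, and differed by -4.46 (adjusted p = 0.00464). Fxyd3, a regulator of the sodium pump, was at 23.8, 36.8 and 24.9 in UUO rats and at most 1.49 elsewhere. Its difference was called in 21 of the 22 alternatives that kept it, with adjusted p up to 0.118. Msln, mesothelin, was at 26.2, 38.7 and 22.3 in UUO and 1.79, 1.07 and 3.99 in adenine rats. They differed by -5.34 (adjusted p = 0.0115) and -4.13 (adjusted p = 0.0231), and Msln was not called without adenine 1 (-4.06), without adenine 2 (-3.72) or without control 2 and adenine 2 together (-2.67). How much pelvis each piece of tissue held is not given in the sources used here, and its part in these values was not tested. Krt19, a keratin of collecting duct and urothelium, was at 34.7, 26.8 and 36 in adenine and 145, 231 and 163 in UUO rats, from 32.6 to 63.1 in the control and sham rats, and differed by -2.43 (adjusted p = 0.000312). Ccn2, a matricellular protein induced by stretch and TGF-beta, was at 241, 242 and 239.8 in UUO rats, 25.4, 48.2 and 53.7 in adenine rats, 40, 68.5 and 42.9 in control and 32, 50.4 and 59 in sham, so the 3 UUO rats agree closely and stand above all others. Its difference was -2.67 (adjusted p = 0.00069). Both were called in all 23 alternatives.

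**Figure D4:**
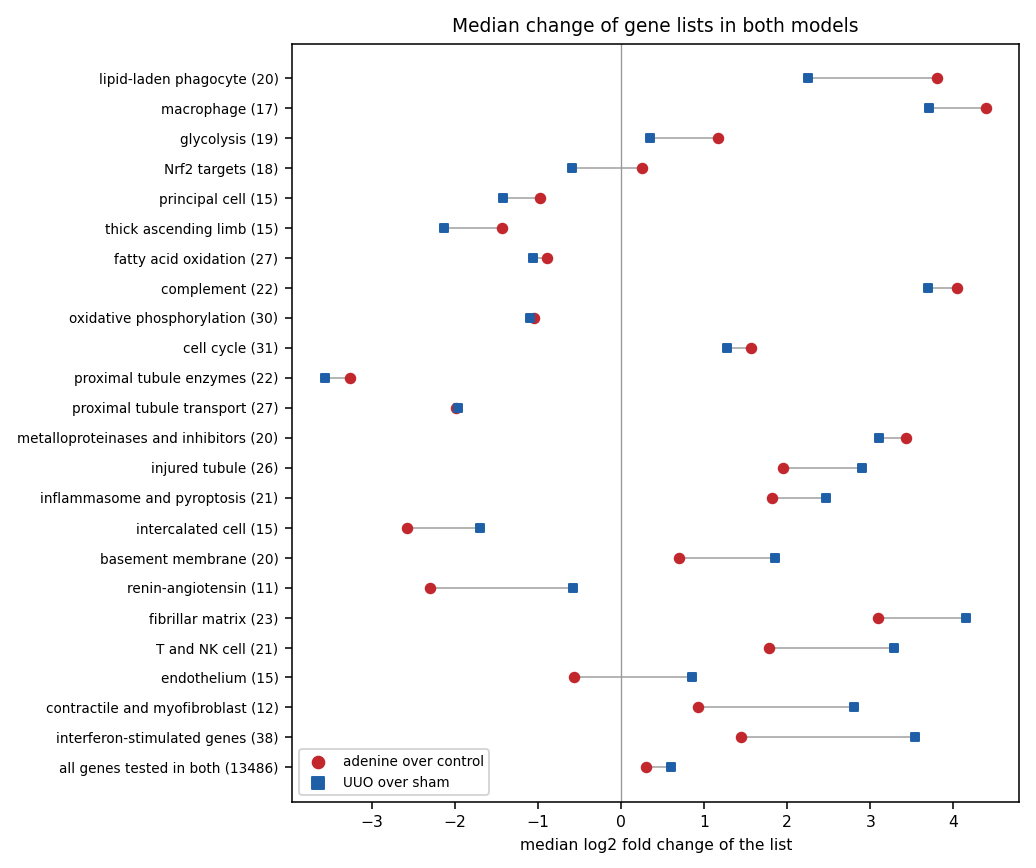
Median log2 fold change (horizontal) of 23 gene lists and of all genes in adenine over control (red circles) and UUO over sham (blue squares), with the number of genes measured in parentheses. The widest gaps are those of the phagocyte list (3.81 and 2.24) toward adenine and of the interferon, contractile and renin-angiotensin lists toward UUO.

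Tubular genes fell in both models. Of 22 proximal tubule enzymes, 14 were downregulated in adenine and 20 in UUO rats, with medians of -3.27 and -3.56, and none was upregulated. Among all genes 4.61% and 4.1% were downregulated, and 10.1% were upregulated in adenine rats. Pck1, which makes phosphoenolpyruvate for gluconeogenesis, was at 914, 181 and 1065 FPKM in control, 326, 553 and 341 in adenine, 1459, 1184 and 839 in sham and 38.2, 65.6 and 60.7 in UUO rats. Control 2 was the low control, and the adenine rats lay within the control range. Pck1 fell by 4.40 in UUO rats (SE 0.27, adjusted p = 3e-05), its adenine change was -0.51 ± 0.67 (adjusted p = 0.536), and the difference of 3.90 (2.35 to 5.45, adjusted p = 0.00236) was called in all 23 alternatives. Amn, the partner of cubilin in protein uptake, fell by 4.43 in adenine (SE 0.56) and by 1.97 in UUO rats (SE 0.20). Dpep1, a membrane dipeptidase, rose in UUO rats by 1.63 ± 0.20, with an adenine change of -0.73 ± 0.58 that did not pass. Without adenine 1 the differences of Amn and Dpep1 were -1.94 and -1.77 and not called. Of 27 proximal transporters, 13 were downregulated in each model. In adenine rats 5 were upregulated, 1 without control 2 and adenine 2, and 5 members were set apart by their starting levels.

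In the collecting duct, Aqp2, the vasopressin-regulated water channel of principal cells, was at 58, 68.5 and 80.1 FPKM in control, 49.1, 26.8 and 31.2 in adenine, 48.1, 63.9 and 53.6 in sham and 5.12, 4.86 and 5.79 in UUO rats. All UUO rats lay below all others. Aqp2 fell by 0.98 in adenine (SE 0.24, adjusted p = 0.0116) and by 3.36 in UUO rats (SE 0.13, adjusted p = 1.09e-05), a difference of 2.38 (1.79 to 2.97, adjusted p = 0.000131), called in all 23 alternatives. Elf5, a transcription factor of principal cells, fell in both and by 2.15 less in adenine (adjusted p = 0.014), not called without control 3, adenine 1, sham 2 or UUO 3, at 1.81 to 1.97. Of the 15 principal cell genes, 1 was downregulated in adenine and 5 in UUO rats, against 4.61% and 4.1% of all genes. The adenine count is near that share. The medians of the list were -0.98 and -1.42. Intercalated cell genes, which secrete acid or base, showed the reverse order, with 9 of 15 downregulated in adenine and 5 in UUO rats and medians of -2.58 and -1.70. Slc26a4, the chloride-bicarbonate exchanger pendrin, was at 55.4, 10 and 88.4 in control, 1.74, 6.04 and 2.03 in adenine, 46.2, 50.3 and 65 in sham and 30, 23.7 and 28.8 in UUO rats. Control 2 was low among the controls, and the adenine rats lay below every other rat. The difference of -2.71 (adjusted p = 0.0342) was called in 16 of 23 alternatives, and that of Slc4a9 at -2.30 in 6. Without control 1, control 3, adenine 1 or adenine 3 the difference of Slc26a4 was -2.49 to -2.08 and not called, and for Slc4a9 omission of any 1 of 8 rats had that effect, at -2.28 to -1.67. With median-of-ratios scaling 9 intercalated genes were downregulated in each model and none differed. Kcnj1, the apical potassium channel of the thick ascending limb and collecting duct, fell by 0.97 in adenine (SE 0.26) and by 2.97 in UUO rats (SE 0.28), a difference of 2.00 that was not called without control 2, adenine 1, adenine 2, sham 1, sham 2, UUO 2 or control 2 and adenine 2 together (1.72 to 1.99), and Slc8a1, the sodium-calcium exchanger, differed by 2.98 (adjusted p = 0.0152). The osmolyte transporters Slc6a12 for betaine and Slc6a6 for taurine rose in adenine by 3.39 ± 0.86 and 2.19 ± 0.23. Their changes in UUO rats, -0.39 ± 0.78 and 0.14 ± 0.43, did not pass, and they differed by 3.78 and 2.04. Slc6a12 was not called without any 1 of 8 rats (3.03 to 3.76), and Slc6a6 without control 1, adenine 1, adenine 3, sham 1 or UUO 1 (1.55 to 1.98).

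Some genes had a lower change in adenine than in UUO rats, by far in Gng13 and Cyp1a1 and near the threshold in Agtr1b. Gng13, a G protein gamma subunit, was at 70.2, 252 and 76.7 FPKM in control, 0.233, 0.339 and 0.263 in adenine, 59.6, 83.3 and 97.7 in sham and 4.94, 5.04 and 5.96 in UUO rats. It fell by 8.21 (SE 0.48) and 3.87 (SE 0.19), a difference of -4.34 (adjusted p = 0.000165). Cyp1a1, a cytochrome P450 induced by the aryl hydrocarbon receptor, was at 1.67, 3.45 and 1.11 in control and 0.0845, 0 and 0 in adenine, and at 1.2, 2.05 and 2.72 in sham and 5.4, 1.13 and 3.88 in UUO rats. It fell in adenine rats (adjusted p = 0.000633), and the difference was -4.60 (adjusted p = 0.00135). Agtr1b, an angiotensin II receptor, fell by 2.59 in adenine rats (SE 0.34), and its difference of -2.01 was called in 12 of 23 alternatives and missed the threshold without control 2, control 3, adenine 2, sham 1, UUO 1, UUO 3 or control 2 and adenine 2 together, at -1.99 to -1.65. Tsen34, a subunit of the tRNA splicing enzyme, was listed at the lowest value of its table, 0.0001, in UUO 1 and UUO 3 and at 1.42 in UUO 2, against 27.3, 22.5 and 26.9 in sham, 39.1, 34.9 and 36.8 in control and 25.5, 26.9 and 29 in adenine rats. A gene that all cells use is listed there at the lowest value, so no fold change is given for it.

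Among the shared DEGs, those with the largest change in both models included markers of tubular injury. Mmp7, the epithelial metalloproteinase matrilysin, was listed at 0 in all control rats, at 44.6, 50.2 and 76.5 FPKM in adenine, 0.183, 0.0442 and 0.128 in sham and 49.4, 214 and 32.5 in UUO rats. Havcr1, the tubular injury molecule KIM-1, was at 32.8, 110.0 and 71.6 in adenine and 91.8, 109 and 154 in UUO rats and rose by 6.43 ± 0.61 and 6.80 ± 0.32. The difference was -0.38 with an interval of -1.86 to 1.11, which is too wide to call the changes alike. Lcn2, the iron-scavenging lipocalin NGAL, rose from 2.68, 6.28 and 2.5 to 399, 538 and 529 in the adenine table and from 6.45, 8.04 and 3.88 to 337, 447 and 363 in the UUO table, a difference of 1.08 (0.14 to 2.02, adjusted p = 0.0793). The interleukin-10 family cytokine Il24 rose by 6.94 ± 0.46 and 7.28 ± 0.42, and the other one, Il19, was at 20.3, 21.8 and 22.2 in adenine and 20.9, 32.8 and 34.1 in UUO rats and listed at 0.0001 in all sham rats. Cthrc1, a secreted matrix protein of activated fibroblasts, differed by 1.13 (-0.31 to 2.57), and Cfi, complement factor I, by -0.02 (-1.29 to 1.25). A2m, a broad protease inhibitor, rose in both but by 2.20 more in adenine (adjusted p = 0.00256), and was not called without adenine 3, where the difference was 1.9. Nlrc4, an inflammasome sensor, and Col4a3, a chain of glomerular basement membrane collagen, changed alike by the interval of the difference. Nlrc4 rose by 2.78 ± 0.23 and 2.46 ± 0.18 (interval -0.31 to 0.94) and Col4a3 fell by 2.07 and 2.12 (interval -0.57 to 0.67). Trpv6, a calcium channel, rose by 5.66 ± 0.32 and 4.34 ± 0.24, and Nlrp3 by 3.58 ± 0.30 and 2.82 ± 0.22, with no called difference. Egf fell by 6.04 in adenine and 7.78 in UUO rats, and Agt by 4.09 and 2.91, also without one, though Agt was called without adenine 1 (-2.01).

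The shared downregulated genes with the largest change included transporters and enzymes of the proximal tubule. Slc7a13, a transporter of aspartate and cystine in the last segment, was at 963, 1997 and 1596 FPKM in control, 0.785, 2.22 and 2.24 in adenine, 1922, 956 and 1253 in sham and 5.03, 3.52 and 5.04 in UUO rats. It fell by 9.75 (SE 0.44) and 8.18 (SE 0.27), and the difference of -1.57 (-2.69 to -0.46) was under 2. Akr1c12l1, an aldo-keto reductase, fell from 613, 829 and 704 to 0.569, 4.32 and 1.98 and from 689, 649.8 and 590.0 to 3.22, 3.89 and 4.17. Slco1a1, an organic anion transporter, was at 0, 0.12 and 0.214 in adenine and 0.581, 0.345 and 0.661 in UUO rats, from 69.3 or more in all control and sham rats. Its difference of -1.89 was called without adenine 3 (-2.25), sham 1 (-2.03) or UUO 2 (-2.12). Cyp2c11, a male-specific cytochrome P450, and Olr1668 were listed at 0 in all adenine rats. A partial site of the factor HNF1, GTTAAT, was found in 4.46% of all promoter windows, 35 of 292 of those of shared downregulated genes, 3.87% of those of shared upregulated genes and 33.3% (6 of 18) of the proximal enzyme list. It is shown for Akr1c12l1 at chr17:70847615-70847644 (plus strand, GRCr8), while the windows of Slco1a1 and Cyp2c11 held no match.
Akr1c12l1: gaagaaaagatgGTTAATattagccaatga

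Opposite changes were rare. With an adjusted p under 0.05 and a log2 fold change of at least 1 in both models, 18 genes not set apart went opposite ways, 4 of them up in adenine and 14 up in UUO. Besides Mmp9 and Klf2, the peroxiredoxin Prdx5 was at 253, 309.5 and 270.3 FPKM in control, 785, 457 and 622 in adenine, 310.1, 363 and 283 in sham and 155, 151 and 116 in UUO rats. The groups overlapped in neither table. Groups were also without overlap for 69.1% of all compared genes in the control and adenine table and 76.9% in the other. Prdx5 rose by 1.13 ± 0.21 and fell by 1.18 (SE 0.15), a difference of 2.31 (adjusted p = 0.000105). Tgm3, a transglutaminase, rose by 2.33 ± 0.62 in adenine rats and fell by 1.02 in UUO rats (SE 0.29). Nexn, an actin-binding protein of muscle, fell from 3.33, 3.83 and 2.2 to 1.16, 1.09 and 1.5 and rose from 0.783, 0.963 and 1.48 to 4.34, 5.75 and 6.47, a difference of -3.52 (adjusted p = 9.5e-05). The matrix genes Egflam and Adamtsl2 fell in adenine rats by 1.27 and 1.25 and rose in UUO rats by 1.31 ± 0.23 and 1.60 ± 0.47. Nexn and Klf2 started lower in sham than in control rats, by 1.46 and 1.38 on the log2 scale, so their changes were measured from unlike levels. Such offsets were not limited to them. Control minus sham was 1.32 for Upk2, 1.53 for Fbln2, -1.27 for Kcnj1 and -1.69 for Slc8a1, all under the limit for setting apart. Over all compared genes this offset had a Pearson correlation of -0.558 with the difference of the changes. Control and sham values enter both, so that correlation is at least partly built in.

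Of the 168 genes set apart by their starting levels, 45 differed (26.8%), against 2.58% of the other genes. All 32 differing genes that were higher in control had the higher change in UUO, and all 13 that were higher in sham had the higher change in adenine. The control and sham values enter both the rule and the difference. The higher share of differing genes, this direction and the lower correlation given below are therefore at least partly built in. Placeholder symbols made up 87 of the 168 genes and 1290 of all. Across genes, which are not independent replicates, the Pearson correlation of the log2 fold changes was 0.848 without the set-apart genes and 0.287 within them. Wbp11, a splicing factor, was listed at 0.0001 in all sham rats and at 15.2, 18 and 9 FPKM in UUO rats, against 9.8, 10.5 and 9.46 in control and 11.7, 11.5 and 16 in adenine rats. Myh9, nonmuscle myosin, was listed at 0.0001 in sham 1, sham 3 and UUO 1 and at 122 and 117 in UUO 2 and UUO 3, while all 6 rats of the other table had between 10.8 and 76.3. Genes in use in all cells were thus listed at the lowest value in some rats of the sham and UUO table. For Wbp11 these were the whole sham group, and its called difference rests on those values. The bicarbonate transporter Slc4a4 was at 2.11, 0.135 and 0.493 in control and 7.25, 2.8 and 7.85 in sham, and 5.83, 25.2 and 25 in adenine and 5.03, 9.01 and 15.9 in UUO rats, so that its rise of 4.53 ± 0.91 in adenine rats started from the lower level. Its difference of 3.81 was not called without adenine 2 (3.46), adenine 3 (3.47) or control 2 and adenine 2 together (2.70). The genes nearest the limit had starting differences of 1.9988 inside and 2.0003 outside.

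**Figure D5:**
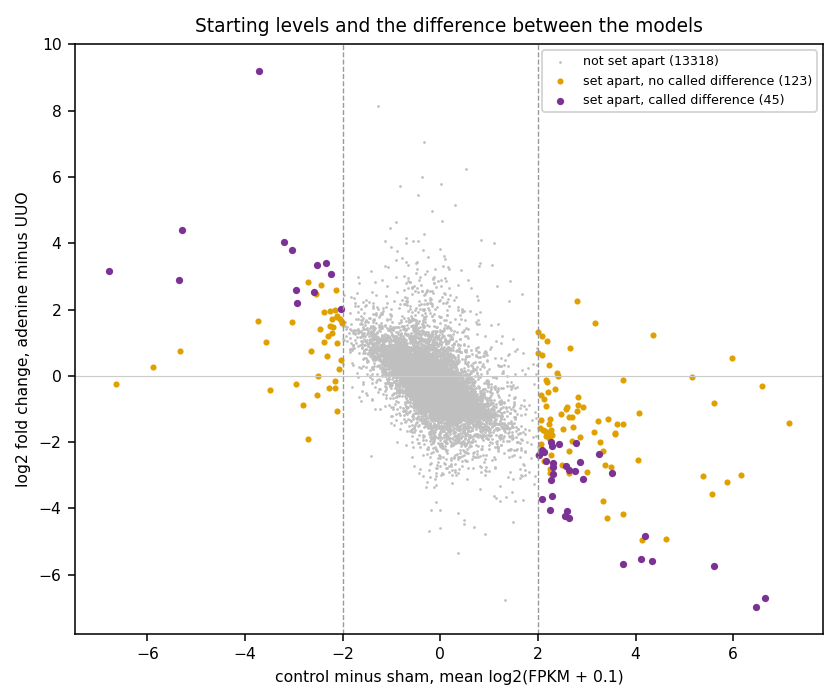
Difference of mean log2(FPKM + 0.1) between control and sham rats (horizontal) and difference of the log2 fold changes, adenine minus UUO (vertical), for 13486 genes. Dashed lines mark the limit of 2. The 45 set-apart genes called different (purple) lie at upper left and lower right.

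In several lists no member had a called difference, and in complement 1 did. Of 30 oxidative phosphorylation genes, 1 was downregulated in adenine and none in UUO rats, with medians of -1.05 and -1.10, against 4.61% and 4.1% of all genes downregulated. Of 27 fatty acid oxidation genes, 3 and 5 were downregulated, with medians of -0.89 and -1.06. Of 31 cell cycle genes, 7 were upregulated in adenine and 1 in UUO rats at medians of 1.57 and 1.28, against 10.1% and 12.4% of all genes, and since no member differed by the test, the unequal counts do not show a difference. Of 21 inflammasome genes, 9 were upregulated in adenine and 14 in UUO rats, and of 22 complement genes 16 and 17. The complement gene that differed was C4b, at 49.9, 28.9 and 68.4 FPKM in adenine and 140.5, 140.1 and 106 in UUO rats, by -2.90 (adjusted p = 0.00418). A missing call does not show that the changes were equal.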

How the data were processed

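Kidney RNA of 12 rats in 4 groups of 3 had been sequenced after poly(A) selection as stranded libraries. The authors deposited FPKM values in 2 tables, 1 for control and adenine and 1 for sham and UUO. Their processing notes name cutadapt 1.9, HISAT2 2.0.4 and StringTie 1.3.4d, with edgeR and DESeq2 for their own comparisons, and the genome build is not given in the sources used here. Read counts were not used here, so the depth is unknown and the spread between 3 rats sets the precision. The lowest listed value is 0 in the first table and 0.0001 in the other.

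Values were analysed as log2(FPKM + 0.1) with limma 3.58.1 (lmFit, eBayes with a trend) in R 4.3.3, each table on its own and over all entries that reached 0.5 FPKM in 3 or more samples, 15029 and 15043 entries, with Benjamini-Hochberg adjustment over these. The difference between the models was divided by the root of the summed squared standard errors, referred to a t distribution with the degrees of freedom of both fits and adjusted over the 13486 genes, with both tables' errors taken as independent. All tests were two-sided. The exact permutation test of 3 rats against 3 cannot go below p = 0.1 and was not used. Simulated data with known changes were used to test both fits.

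Named genes include the 12 with the largest called difference in each direction, among those whose per-rat changes did not overlap between the models. They include the 8 shared DEGs of each direction with the largest smaller change, among those whose groups did not overlap in either table. Separation of the rats in genes named in this way is therefore partly built in. Further named genes are up to 6 with opposite changes in each direction and up to 4 differing members of each list. The rest are the genes the paper discusses and the 5 with the most unlike starting levels in each direction. Placeholder symbols were left out, and not every gene of these rules is described. Some genes are not reported here. The genes, the lists and these rules were chosen with earlier results of these data known. Lists are described by counts and medians, with no set test. Promoter windows came from RefSeq (GRCr8), with 9849 of the 13486 genes (73.0%) matched by symbol, and were searched on both strands. Alternatives were other pseudocounts, filters, scalings, variance models, thresholds and left-out rats.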

Additional observations from a re-analysis of the deposited data

How the results depend on the processing

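The number of rats, 3 in each group, limits the precision, and low FPKM values carry the largest errors. With a pseudocount of 1, which shrinks the changes of low genes, the counts of DEGs were 1203 in adenine and 1371 in UUO rats, 816 shared, 1 opposite, 207 differing and 73 set apart. Without a threshold on the fold change they were 8150, 9669, 6422 shared, 249 opposite and 3640 differing. Without a filter on low values 630 genes differed and 267 were set apart, and with a pseudocount of 0.01 there were 271 set apart, with a limit of 2-fold 1197. The number of opposite DEGs was 2, and 1 with a minimum FPKM of 1 or median-of-ratios scaling. No named gene turned the sign of a called difference in these settings. The split of the 389 differing genes into 144 higher in adenine and 245 higher in UUO became 196 and 143 with median-of-ratios scaling, 216 and 150 with quantile normalization, and 155 and 217 with FPKM rescaled to 1 sum, while the median difference of all genes moved from -0.28 to 0.02, -0.01 and -0.23. Under the same settings the median adenine change was 0.30, 0.01, -0.0038 and 0.56.

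Leaving out each rat in turn gave 1909 to 2060 adenine DEGs, 2154 to 2267 UUO DEGs, 1395 to 1481 shared DEGs, 1 to 3 opposite DEGs, 348 to 442 differing genes, 222 to 282 like-sized DEGs and 168 to 221 set-apart genes. In all 12 of these fits 212 of the 389 differing genes (86 higher in adenine and 126 in UUO) and 1183 of the 1449 shared DEGs remained called. Without control 2 and adenine 2 together, chosen after seeing the data, 424 genes differed, 167 higher in adenine and 257 in UUO. The replicate numbers are shared between the groups of a table, but same-numbered rats did not deviate together, with correlations of -0.13, -0.17 and -0.05 in the control and adenine table and 0.04, 0.14 and 0.08 in the other. With the replicate block 390 genes differed, 146 and 244.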

Other observations

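Genes that passed the filter in only 1 table were outside the comparison. Of 415 such genes of the control and adenine table, 186 were DEGs, and of 463 of the sham and UUO table, 206 were. The other table had a mean FPKM under 0.5 in both groups for 105 and 121 of them, so no change between the models was tested. Having passed through one model's tissue, they had to be high there. The 6 named of each are those with the largest change.

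In the adenine rats these were genes of myeloid cells and others. Tm4sf19, a tetraspanin-like protein, was at 64.6, 31.8 and 63.8 FPKM in adenine rats and under 0.65 in every other rat. Clec4e, the lectin receptor Mincle, was at 44.1, 21.1 and 45.6, and Clec4d, its partner, at 16.7, 5.06 and 16.9. Acod1, which makes itaconate in activated macrophages, was at 14, 1.69 and 10.4, with adenine 2 the lowest. Sfrp5, a secreted Wnt antagonist, was at 10.8, 7.49 and 7.12, and Mamdc2 at 30.3, 13.6 and 15.5. Adenine 2 was the lowest of the adenine rats in 5 of the 6.

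In UUO rats these were mostly genes of stratified and urinary tract epithelium. Krt14 and Krt5, keratins of basal epithelial cells, were at 21.1, 31.2 and 24.5 and at 12.6, 2.57 and 5.95 FPKM. Upk3a, a uroplakin, was at 51.3, 28.5 and 49.1, and control 2 had 1.04 as the highest value outside UUO. Anxa8, an annexin of such epithelia, was at 26.8, 48.8 and 27.7. Sptssb, a subunit of serine palmitoyltransferase, was at 13.5, 9.11 and 20.1, and Snx31, a sorting nexin of the urothelium, at 4.32, 8.99 and 11.3.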
